A study of Rattus norvegicus with 10 samples.

Results

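Transcripts of the pore-forming subunits of voltage-gated calcium channels were followed in the left hippocampus of female transgenic rats given ibudilast and of untreated transgenic females. The genes were taken by symbol, and all 8 were present among the 17168 genes of the count table: Cacna1c and Cacna1d for L-type channels, Cacna1a for P/Q-type, Cacna1b for N-type, Cacna1e for R-type, and Cacna1g, Cacna1h and Cacna1i for T-type. The ibudilast group was 5 TgF-344AD rats (genotype label Tg-AD) fed chow with ibudilast, started at 5 months of age and kept up for 6 months. The untreated group was 5 TgF-344AD rats fed rodent chow. All 10 animals were females of 11 months, were anaesthetized with ketamine and xylazine, and were perfused with cold buffer before the hippocampus was frozen. Both groups carried the transgenes, and no wild-type animals were analysed here. The transgenes are driven by the mouse prion promoter, and the line is used as a model of amyloid pathology. Ibudilast blocks phosphodiesterases, the enzymes that break down cAMP.

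A voltage-gated calcium channel opens when the membrane is depolarized and lets calcium into the cell. Its pore is a single large protein, and its subfamilies give the current types. L-type pores (the Cav1 subfamily) sit mainly on neuronal cell bodies and dendrites and couple activity to gene expression. The P/Q-, N- and R-type pores (Cav2) supply most of the calcium that triggers transmitter release. T-type pores (Cav3) open near the resting potential and drive burst firing. In rodent brain, Cacna1a is known to be abundant in cerebellar Purkinje and granule cells, Cacna1g in thalamic relay and Purkinje neurons, Cacna1i in the reticular thalamus, and Cacna1h in dentate granule cells.

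Pore subunits did not move as 1 block. All 3 Cav2 genes and the T-type genes Cacna1g and Cacna1i were higher in ibudilast libraries, the T-type gene Cacna1h was lower, and neither L-type gene passed the test. That made 5 of 8 genes higher, where 20.0% of the 11682 genes tested were called higher (edgeR quasi-likelihood test, adjusted p under 0.05 over all genes tested). It made 1 of 8 lower, where 18.5% of all tested genes were. The median log2 fold change (ibudilast over untreated) of the 8 was 0.79, against 0.01 over all tested genes. In either direction 6 of 8 passed, against 38.5% of all tested genes. Groups did not overlap for 4 of the 8, all higher in ibudilast libraries. Of all tested genes 24.2% did not overlap, with 12.3% higher and 11.8% lower.

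Some libraries stood apart by markers of other tissue, and these touch the results below. Ibudilast 3 had a summed level of 9 cerebellar markers of 4144 CPM (counts relative to library size, adjusted for composition with TMM factors). That sum was 66.9 to 160 CPM in the other ibudilast libraries and 42.7 to 83.4 CPM in untreated libraries. The cerebellar granule cell gene Fat2 reached 1184 CPM in ibudilast 3 and at most 5.59 CPM elsewhere, and Gabra6, Pcp2 and Barhl2 were at 0 in at least 1 library. Of 5 cerebellar markers tested 4 rose, and 3 did without ibudilast 3. Neocortical markers (13 in the file, none at 0) summed to 799 to 1185 CPM in ibudilast and 525 to 696 CPM in untreated libraries, with 6 of 12 tested higher. Etv1 alone gave 513 of the 909 CPM in ibudilast 3, against at most 202 CPM in any other library. The place of ibudilast 3 above the untreated range rests on that gene. Hippocampal principal cell markers (15 in the file) summed to 495 to 1347 CPM in ibudilast and 988 to 1794 CPM in untreated libraries. Of the 11 tested 5 fell, and Tdo2, Lct, Iyd and Spink8 were at 0 in at least 1 library. Thalamic markers summed to 698 CPM in ibudilast 3, to 127 to 209 CPM in the other ibudilast libraries and to 129 to 182 CPM in untreated libraries. Zic1 alone gave 292 CPM of that sum, against at most 28.6 CPM in any other library. Tcf7l2 was also highest in ibudilast 3, at 18.3 CPM, but Ntng1 (52.2 CPM) lay inside the range of the other libraries. Ibudilast 3 was also the library with 4144 CPM of cerebellar markers. Whether its thalamic sum came from thalamic or from cerebellar tissue was not tested. Meningeal markers were high in ibudilast 3 and ibudilast 5 and choroid plexus markers in untreated 1. Microglial, astrocyte and endothelial markers also differed, with none at 0 in any library. Of 12 microglial markers 11 fell, and they summed to 376 to 724 CPM in ibudilast and 833 to 1441 CPM in untreated libraries. Of 10 astrocyte markers 5 fell and 1 rose, with sums of 2199 to 3486 CPM in ibudilast and 3683 to 5540 CPM in untreated libraries. Of 8 endothelial markers 4 fell, with sums of 346 to 542 CPM in ibudilast and 490 to 736 CPM in untreated libraries. The part of these differences in tissue and cell makeup in the pore gene results was not tested beyond the fits given below. Neocortical sums did not overlap between the groups, and 6 of those markers were themselves called. Neocortical content and treatment therefore cannot be fully told apart in the fits with a neocortical score. The libraries are of whole tissue, so fewer cells of a type and less RNA per cell cannot be told apart.

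**Figure D1:**
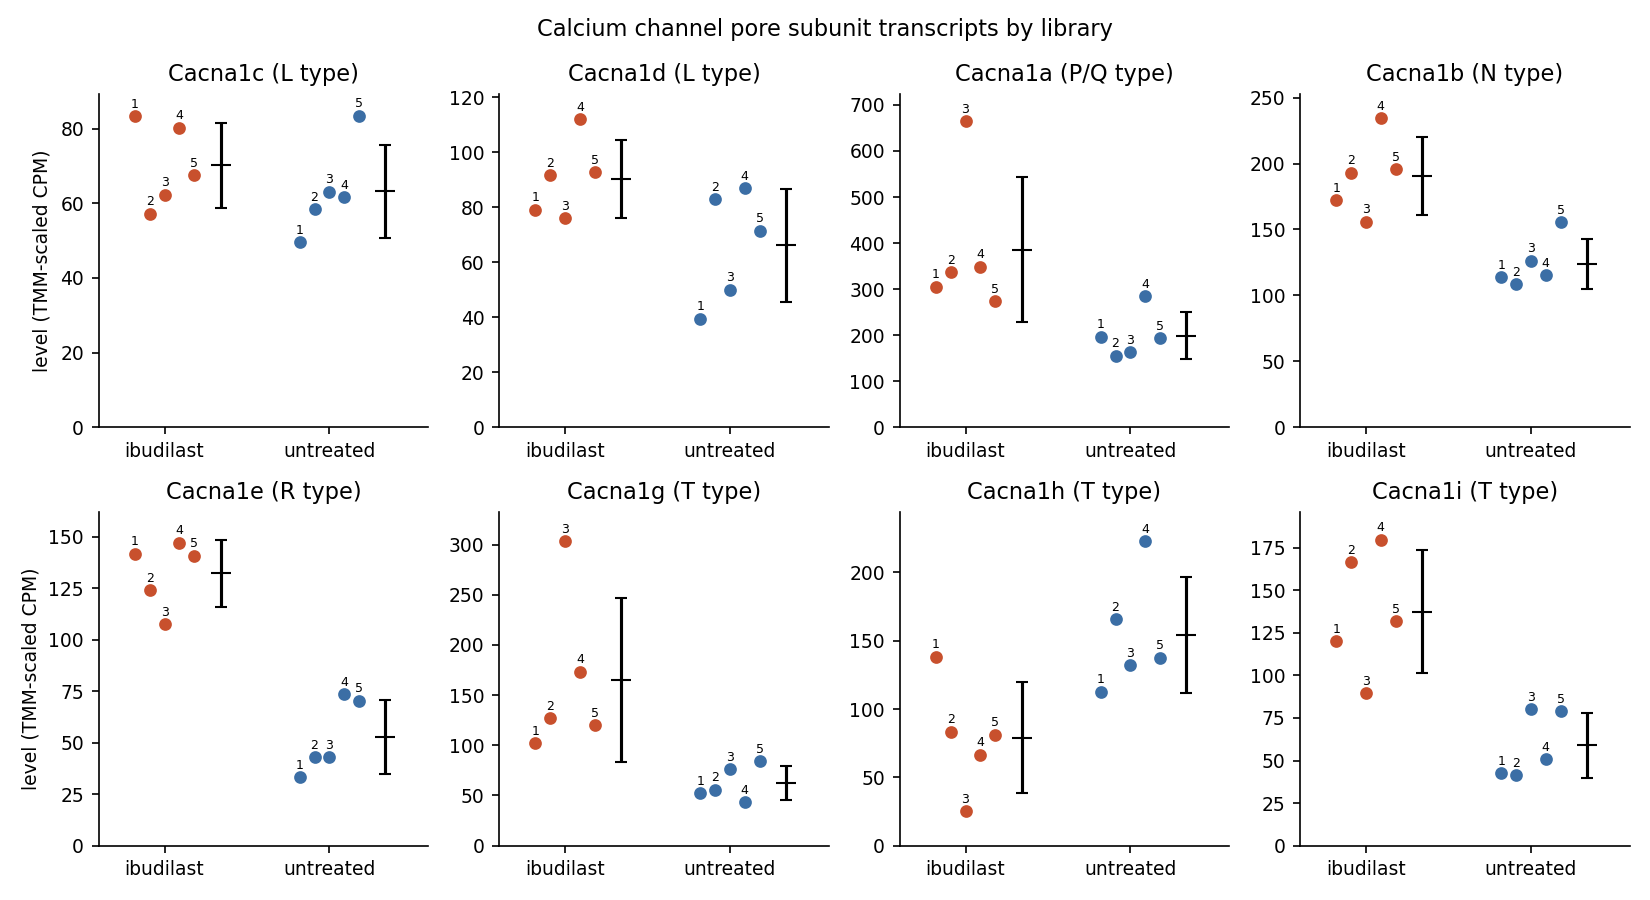
Level of each pore subunit gene in TMM-scaled CPM (vertical axes from 0) in the ibudilast and untreated libraries, numbered by replicate, with the mean and SD of 5 at the right of each group. The groups are apart for Cacna1b, Cacna1e, Cacna1g and Cacna1i, and ibudilast 3 is the highest library for Cacna1a and Cacna1g and the lowest for Cacna1h.

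The L-type genes did not pass. Cacna1c encodes Cav1.2, the main L-type pore of brain and heart. It stood at 83.3, 57.2, 62.3, 80.3 and 67.5 CPM in ibudilast 1 to 5, against 49.6, 58.4, 63.1, 61.7 and 83.4 CPM in untreated 1 to 5. The groups overlapped over nearly their whole range. It differed by 0.15 ± 0.15 on the log2 scale (SE; edgeR adjusted p = 0.439). Cacna1d encodes Cav1.3, an L-type pore that opens at more negative voltages. Its levels were 79.1, 91.6, 75.9, 112 and 92.7 CPM in ibudilast libraries, and 39.4, 82.8, 49.95, 86.8 and 71.4 CPM in untreated libraries. All 5 ibudilast libraries lay above the untreated mean, but untreated 2 and untreated 4 lay within the ibudilast range. The log2 fold change was 0.45 ± 0.21 (SE; edgeR adjusted p = 0.103).

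All 3 Cav2 genes rose, Cacna1e the most by fitted fold change. Cacna1a, which encodes the P/Q-type pore Cav2.1 of fast central synapses, stood at 306, 337, 665, 349 and 274 CPM in ibudilast 1 to 5, against 197, 156, 163, 284 and 193 CPM in untreated 1 to 5. Ibudilast 3 was far above the rest, and the groups overlapped at untreated 4. The log2 fold change was 0.96 ± 0.25 (SE; edgeR adjusted p = 0.0126), and 0.68 without ibudilast 3, where the gene still passed (adjusted p = 0.00829). Cacna1a did not pass with a hippocampal marker score as a covariate (log2 fold change 0.65, adjusted p = 0.12) or with the trend over gene span removed (0.58, adjusted p = 0.119).

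Cacna1b, which encodes the N-type pore Cav2.2, varied little within groups. It stood at 172, 193, 156, 235 and 196 CPM in ibudilast libraries and at 114, 108, 126, 115 and 155 CPM in untreated libraries. The lowest ibudilast library, ibudilast 3, lay just above untreated 5, the highest untreated one. Cacna1b rose by 0.62 ± 0.13 on the log2 scale (SE; edgeR adjusted p = 0.0043), and it was 0.33 with a neocortical marker score as a covariate, where the gene did not pass (adjusted p = 0.186). With the span trend removed it was 0.29 (adjusted p = 0.0448).

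Cacna1e, which encodes the R-type pore Cav2.3, had the clearest separation. Its levels were 142, 124, 108, 147 and 141 CPM in ibudilast libraries, against 33.3, 43.0, 43.1, 73.5 and 70.5 CPM in untreated libraries. Every ibudilast library lay well above every untreated one, and untreated 4 and untreated 5 were the highest of their group. Cacna1e rose by 1.33 ± 0.21 on the log2 scale (SE; edgeR adjusted p = 0.00134), a 2.51-fold higher level. It ran from 1.2 to 1.48 with 1 library left out, was 1.09 with the neocortical score and 1.51 with the hippocampal score as a covariate, and was 0.88 with the span trend removed. The gene passed in each of these fits.

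The T-type genes split. Cacna1g, which encodes Cav3.1, stood at 102, 127, 304, 174 and 120 CPM in ibudilast 1 to 5, against 52.3, 55.9, 76.0, 43.4 and 84.3 CPM in untreated 1 to 5. The groups did not overlap, and ibudilast 3 was the highest library. The log2 fold change was 1.41 ± 0.30 (SE; edgeR adjusted p = 0.00484), and 1.07 without ibudilast 3. It was 2.0 with the neocortical and 0.77 with the hippocampal score as a covariate. The gene passed in both fits, which keep ibudilast 3. Cacna1i, which encodes Cav3.3, had 120, 166, 89.6, 180 and 132 CPM in ibudilast libraries and 42.7, 41.6, 80.2, 50.9 and 79.0 CPM in untreated libraries. Here ibudilast 3 was the lowest of the ibudilast libraries, and ibudilast 2 and ibudilast 4, which also had the highest neocortical marker sums, were the highest. For Cacna1i the log2 fold change was 1.22 ± 0.24 (SE; edgeR adjusted p = 0.00329), but 0.66 with the neocortical score as a covariate, where the gene did not pass (adjusted p = 0.15).

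Cacna1h, which encodes Cav3.2, was lower. It stood at 138, 83.6, 25.1, 66.7 and 81.2 CPM in ibudilast libraries, against 113, 166, 132, 223 and 138 CPM in untreated libraries. All 5 ibudilast libraries lay below the untreated mean, ibudilast 3 was the lowest, and only ibudilast 1 reached into the untreated range. The log2 fold change was -0.97 ± 0.35 (SE; edgeR adjusted p = 0.0482), close to the threshold. The call was lost without ibudilast 2, ibudilast 4, ibudilast 5 or any 1 untreated library (adjusted p = 0.0561 to 0.108), and held without ibudilast 1 (log2 fold change -1.27, adjusted p = 0.0125) or ibudilast 3 (-0.73, adjusted p = 0.0323). With the hippocampal score as a covariate the log2 fold change was -0.38 (adjusted p = 0.188), and with the neocortical score -1.65 (adjusted p = 0.0822). The dentate granule cell gene C1ql2 stood at 72.8, 13.1, 5.57, 6.57 and 25.3 CPM in ibudilast 1 to 5, against 41.9, 149, 49.8, 122 and 86.3 CPM in untreated 1 to 5. Prox1, another granule cell gene, stood at 27.5, 10.9, 19.5, 8.92 and 26.5 CPM in ibudilast libraries, against 11.1, 41.7, 13.5, 56.3 and 46.6 CPM in untreated libraries, and was not called (adjusted p = 0.17). Ibudilast 1 was the highest ibudilast library for all 3 genes, while ibudilast 3 was the lowest for Cacna1h and C1ql2 but not for Prox1. The part of granule cell content in the Cacna1h result was not tested.

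**Figure D2:**
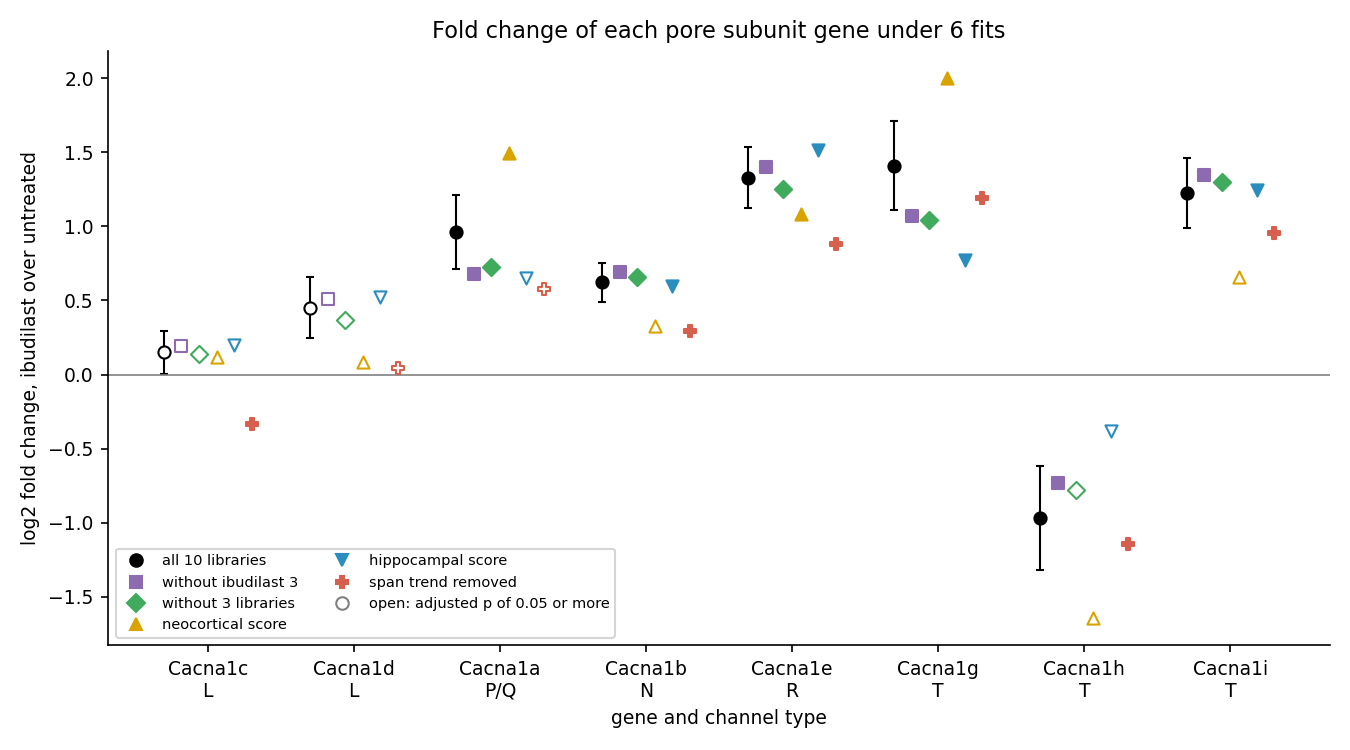
Log2 fold change (ibudilast over untreated) of each gene in the fit to all 10 libraries, with its SE, and in 5 other fits (the fit without 3 libraries leaves out ibudilast 3, ibudilast 5 and untreated 1). Filled symbols passed an adjusted p of 0.05 over all genes tested, open symbols did not. Cacna1e and Cacna1g passed in all 6, and Cacna1h lay below 0 in all 6.

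Counts of called members moved with the fit, and so did those of all genes. Without ibudilast 3, 5 members were higher and 1 lower, where 22.0% and 18.6% of all tested genes were. With the neocortical score as a covariate 3 of 8 were higher (Cacna1a, Cacna1e and Cacna1g) and none lower, against 11.2% and 5.88% of all genes. With the hippocampal score 4 of 8 were higher and none lower, against 12.4% and 10.4%. Neither score fit holds cerebellar content fixed. The median log2 fold change of the 5 tested cerebellar markers was 4.14, then 5.73 with the neocortical and 1.46 with the hippocampal score. Cacna1a (1.49 and 0.65) and Cacna1g (2.0 and 0.77) moved in the same directions, and Cacna1h grew and shrank in size likewise. With the neocortical score Cacna1b (0.33 and 0.60), Cacna1c (0.12 and 0.20) and Cacna1d (0.09 and 0.53) were instead smaller than with the hippocampal score. So were Cacna1e (1.09 and 1.51) and Cacna1i (0.66 and 1.25). The cause was not tested. Cacna1h had an unadjusted p of 0.021 with the neocortical and 0.0855 with the hippocampal score in these edgeR fits (adjusted p = 0.0822 and 0.188). With the span trend removed 4 were higher and 2 lower, against 15.6% and 18.2% of all genes.

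Whether members of one subfamily moved by different amounts was asked with the log2 ratio of 2 levels in each library, for all 7 pairs within Cav1, Cav2 and Cav3. The T-type pairs with Cacna1h changed most. The log2 ratio of Cacna1g over Cacna1h was 1.13 ± 1.51 in ibudilast and -1.30 ± 0.67 in untreated libraries (SD, n = 5 each), a difference of 2.43 (two-sided exact permutation p = 0.00794, adjusted over the 7 pairs 0.0278). Ibudilast 3 had the highest ratio and ibudilast 1 the lowest of the ibudilast libraries. The log2 ratio of Cacna1h over Cacna1i was -0.94 ± 0.77 in ibudilast and 1.40 ± 0.65 in untreated libraries (SD, n = 5 each), a difference of -2.34 (exact permutation p = 0.00794, adjusted 0.0278). For neither pair did the groups overlap, and 0.00794 is the smallest p that 5 against 5 libraries can give. Without ibudilast 3 the differences were 1.83 and -2.13 (adjusted exact permutation p = 0.0278 for each).

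Within Cav2, Cacna1e gained on Cacna1b. The log2 ratio of Cacna1b over Cacna1e was 0.52 ± 0.16 in ibudilast and 1.28 ± 0.42 in untreated libraries (SD, n = 5 each), a difference of -0.76 (exact permutation p = 0.0159, adjusted 0.037). The ratio in untreated 4 was inside the ibudilast range, and the call was lost without ibudilast 1, ibudilast 2 or ibudilast 5 (adjusted exact permutation p = 0.0556 for each). The ratio of Cacna1a over Cacna1e had a difference of -0.47 (adjusted exact permutation p = 0.3) that became -0.75 without ibudilast 3 (adjusted exact permutation p = 0.037). For Cacna1a over Cacna1b, Cacna1g over Cacna1i and Cacna1c over Cacna1d the differences were 0.30, 0.09 and -0.34, with adjusted exact permutation p = 0.537, 0.96 and 0.3. So a difference between the 2 L-type genes was not shown.

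**Figure D3:**
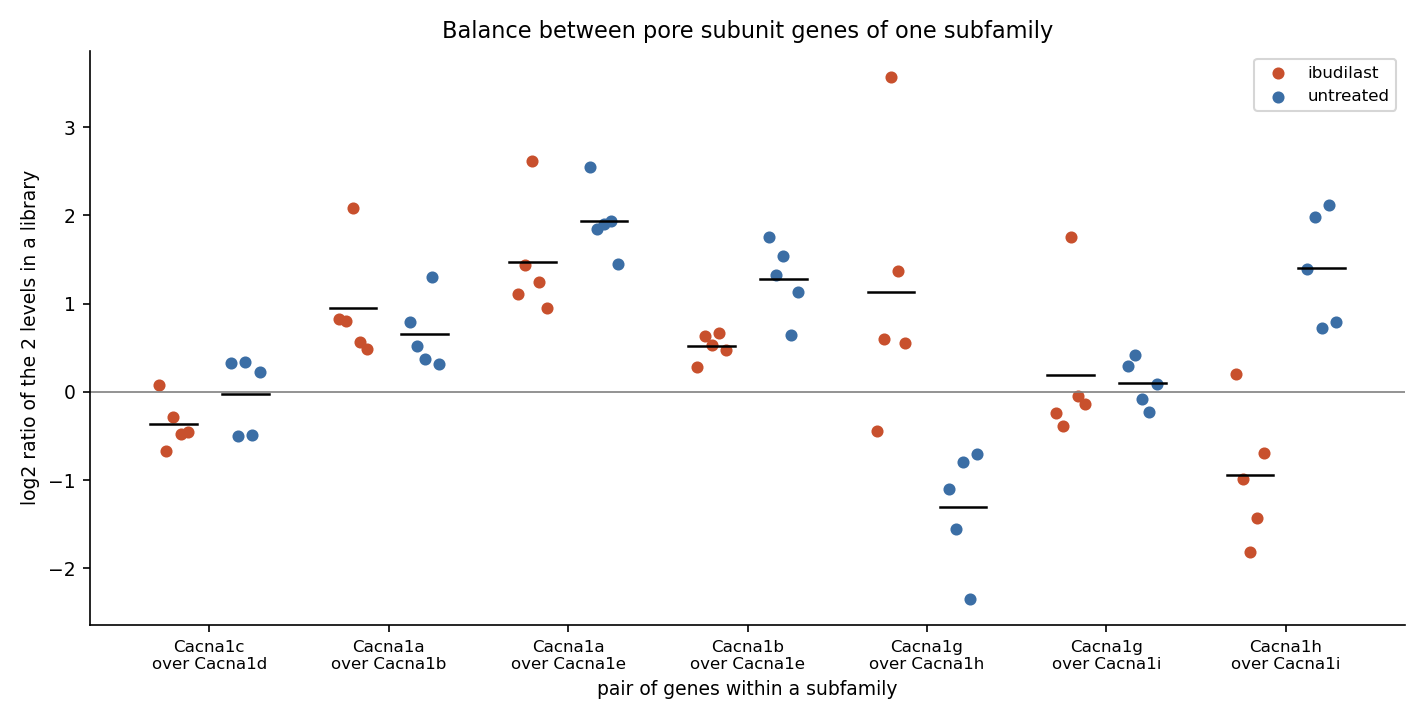
Log2 ratio of the levels of 2 genes of one subfamily in each library, with the mean of each group as a line. For both pairs with Cacna1h the 5 ibudilast and 5 untreated libraries do not overlap.

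The 8 genes together had 1103 to 1485 CPM in ibudilast and 641 to 938 CPM in untreated libraries, so their sum was higher in every ibudilast library. Transcript lengths were not among the sources used here, so levels are not ranked between genes, and a type's share of this sum is read only between libraries. The R-type share was 10.8 ± 2.19% in ibudilast and 6.6 ± 1.27% in untreated libraries (SD, n = 5 each). The L-type share was 12.99 ± 2.2% in ibudilast and 16.5 ± 2.3% in untreated libraries. Mean levels of the L-type genes were not lower in ibudilast libraries. Cacna1c averaged 70.1 CPM there and 63.2 CPM in untreated libraries, and Cacna1d 90.3 and 66.1 CPM. T-type genes made up 28.2 to 31.96% in ibudilast and 32.4 to 39.3% in untreated libraries, a small step beside the swap inside that type. Cacna1h alone gave 6.64 ± 3.80% of the sum in ibudilast and 19.7 ± 3.61% in untreated libraries. The P/Q-type share was 44.8% in ibudilast 3 and 24.8 to 28.6% in the other ibudilast libraries, against 21.9 to 30.7% in untreated libraries. N-type made up 15.4 ± 2.95% in ibudilast and 16.0 ± 2.35% in untreated libraries. These shares are descriptions and were not tested.

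**Figure D4:**
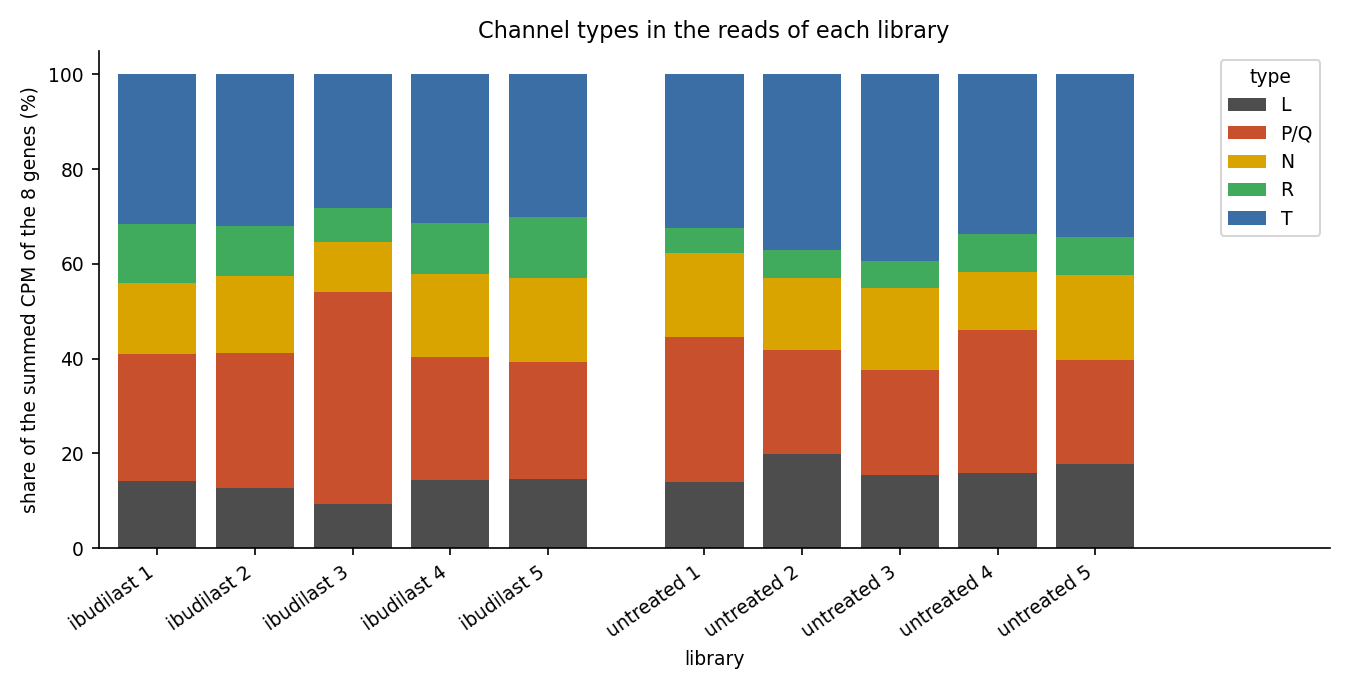
Share of each channel type in the summed CPM of the 8 genes, by library. The R-type band is wider in 4 of the 5 ibudilast libraries than in any untreated library, and the P/Q-type band is widest in ibudilast 3.

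Calcium channel pore genes are long, and long genes as a whole were higher in ibudilast libraries. By genomic span, Cacna1a, Cacna1b, Cacna1c, Cacna1d and Cacna1e lie in the longest decile of tested genes, Cacna1i in decile 9, and Cacna1g and Cacna1h in decile 8. The median log2 fold change was 0.38 in the longest decile, 0.26 in decile 9 and 0.20 in decile 8. In those deciles 38.2%, 36.4% and 30.9% of genes were called higher and 8.36%, 8.98% and 11% lower. With the trend over span removed by an offset per library, Cacna1b, Cacna1e, Cacna1g and Cacna1i were still called higher, and Cacna1h (log2 fold change -1.14, adjusted p = 0.0307) and Cacna1c (-0.33, adjusted p = 0.0461) lower. Cacna1c thus changed sign in that fit. Span is that of the GRCr8 assembly, and the counts were made on rn6.

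Promoter sequence was looked at for the 5 members that the RefSeq table (GRCr8) lists, Cacna1a, Cacna1b, Cacna1c, Cacna1d and Cacna1e; Cacna1g, Cacna1h and Cacna1i had no entry. Ibudilast acts on cAMP breakdown, and cAMP signals to the CRE, the site of the factor CREB, so the windows of 250 bases before the start were searched on both strands for the full CRE (TGACGTCA), its half-site (TGACG), an EGR1 site (GCGGGGGCG), a GC box (GGGCGG) and a TATA box (TATAAA). The N-type gene that rose and an L-type gene that did not pass are shown, since each holds 1 half-site. Capitals mark the half-sites and EGR1 sites.
Cacna1b, chr3:27944286-27944535, minus strand: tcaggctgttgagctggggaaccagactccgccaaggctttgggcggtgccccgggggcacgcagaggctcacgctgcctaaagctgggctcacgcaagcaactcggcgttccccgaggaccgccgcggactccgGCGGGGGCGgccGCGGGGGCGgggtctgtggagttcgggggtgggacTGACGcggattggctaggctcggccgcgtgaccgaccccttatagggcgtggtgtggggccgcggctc
Cacna1c, chr4:154051749-154051998, minus strand: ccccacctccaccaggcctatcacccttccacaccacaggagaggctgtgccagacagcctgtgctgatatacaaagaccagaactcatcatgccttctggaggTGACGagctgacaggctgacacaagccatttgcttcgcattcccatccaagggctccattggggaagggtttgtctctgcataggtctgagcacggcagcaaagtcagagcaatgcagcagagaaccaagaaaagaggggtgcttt
The half-site begins 68 bases before the start in Cacna1b and 146 bases before it in Cacna1c. Cacna1b also holds 2 EGR1 sites and 3 GC boxes, 2 of which overlap the EGR1 sites by all but 1 letter. Cacna1a, Cacna1d and Cacna1e hold no half-site, none of the 5 windows holds a full CRE or a TATA box, and GC boxes number 9 in Cacna1d and 1 in Cacna1a. Over the 33469 promoters of the table, 18.2% hold a half-site, 1.59% a full CRE, 2.45% this EGR1 site, 30.5% a GC box and 12.9% a TATA box. These shares are not matched for base content. G and C made up 72% of the Cacna1b, 76.8% of the Cacna1a and 88.8% of the Cacna1d window, against a median of 51.2% over all promoters.

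Counts in the 6 related gene lists that follow are to be read against the shares of all tested genes in the same fit. With all 10 libraries these were 20.0% called higher and 18.5% lower. They were 22.0% and 18.6% without ibudilast 3, and 11.2% and 5.88% with the neocortical score. With the span trend removed they were 15.6% and 18.2%. Auxiliary subunits, which traffic and gate the pore, moved in both directions. Of 14 listed genes 13 were tested, 8 rose and 1 fell, and the list's median was 0.47 on the log2 scale. With the neocortical score as a covariate 4 rose, and with the span trend removed 5 did. Cacnb4, which encodes the cytosolic beta subunit most tied to P/Q-type channels, averaged 122 ± 44.2 CPM in ibudilast and 24.7 ± 8.21 CPM in untreated libraries (SD, n = 5 each). On the log2 scale it rose by 2.31 ± 0.30 (SE; edgeR adjusted p = 0.000918), more than any pore gene. Cacna2d2, an alpha2delta subunit that carries pores to the membrane, rose by 1.66 ± 0.36 on the log2 scale, or 1.21 without ibudilast 3. Cacng5, of the gamma family, rose by 1.48 ± 0.34 from a low level. It averaged 4.33 CPM in ibudilast and 1.57 CPM in untreated libraries, with an untreated minimum of 0.49 CPM. The fallen gene was Cacng8, an AMPA receptor partner of the gamma family, with a log2 fold change of -1.21 (adjusted p = 0.0289). It was not called lower with either marker score as a covariate or without ibudilast 3, ibudilast 5 and untreated 1.

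Channel regulators were mostly not called, with 3 higher and 2 lower of 17 tested, or near the shares over all genes, and a median log2 fold change of 0.05. Without ibudilast 3, 6 were higher and the median was 0.11, and with the neocortical score as a covariate edgeR called 0 in either direction, with 3 at an unadjusted p under 0.05. Rem2, a small GTPase that inhibits high-voltage-activated channels, averaged 5.59 ± 3.82 CPM in ibudilast and 21.8 ± 12.2 CPM in untreated libraries (SD, n = 5 each; edgeR adjusted p = 0.0166). Stac2, an adaptor known to slow inactivation of L-type channels, rose by 1.5 ± 0.34 on the log2 scale (SE). Unc79, a subunit of the sodium leak channel complex, rose by 0.54 ± 0.12. Of 18 presynaptic partners of Cav2 channels tested 9 rose and 9 did not pass, with a median of 0.61. Without ibudilast 3, 14 rose (median 0.76), but 4 did with the span trend removed (median 0.18) and 4 with the neocortical score as a covariate (median 0.22). Among them Nrxn3, a presynaptic adhesion gene, averaged 140 ± 32.2 CPM in ibudilast and 63.1 ± 13.9 CPM in untreated libraries. The vesicle calcium sensor gene Syt2 rose by 4.83 on the log2 scale, or 3.84 without ibudilast 3.

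Genes that act on the calcium that enters were also mixed. Of 7 calcium-activated potassium channel genes tested 3 rose and 4 did not pass (median 0.14). Kcnma1, the BK channel pore, averaged 110 ± 23.4 CPM in ibudilast and 44.7 ± 9.96 CPM in untreated libraries (SD, n = 5 each; edgeR adjusted p = 0.00098). Kcnt1, a sodium-activated relative kept in this list, rose by 2.16 ± 0.41 on the log2 scale (SE), or 1.64 without ibudilast 3. Kcnn1, an SK channel gene, had a log2 fold change of 0.47 ± 0.17, and its call was lost on leaving out any library other than ibudilast 3 or untreated 5. In clearance and stores 6 rose and 2 fell of 17 (median 0.32). Slc8a3, a sodium-calcium exchanger gene, averaged 33.3 ± 7.41 CPM in ibudilast and 11.0 ± 2.38 CPM in untreated libraries. Itpr3, a calcium release channel, rose by 1.28 ± 0.22, and Orai1, the store-operated channel pore, fell by 0.85 on the log2 scale. In signalling from L-type channels to the nucleus 9 rose and 1 fell of 16 (median 0.68), and with the neocortical score as a covariate 5 rose and 1 fell. Camk2d averaged 119 ± 40.5 CPM in ibudilast and 21.3 ± 8.35 CPM in untreated libraries. The kinase gene Camkk2 rose by 1.58 ± 0.20 and the CREB coactivator gene Crtc1 by 0.82 ± 0.12. Over these 6 lists 38 of 88 tested genes were called higher and 6 lower, or 43.2% and 6.82%, against 20.0% and 18.5% of all tested genes.

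**Figure D5:**
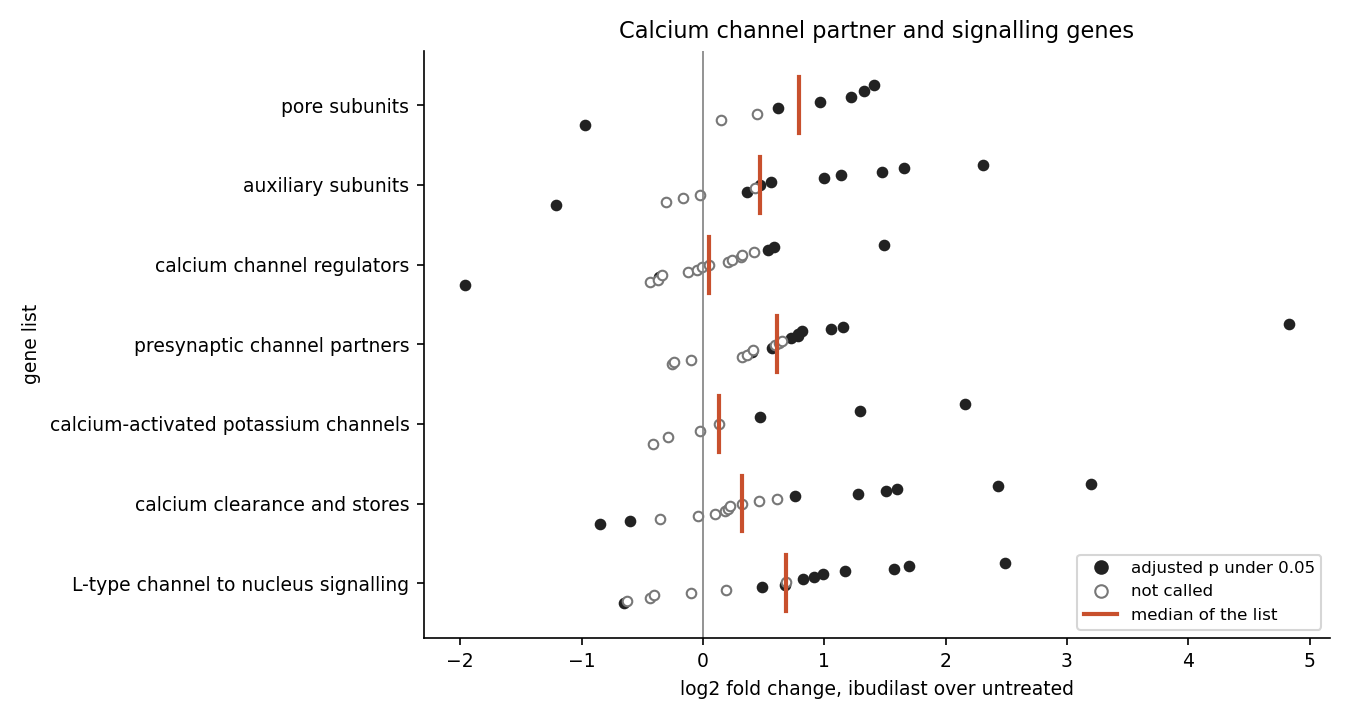
Log2 fold change (ibudilast over untreated) of the 8 pore genes and of the tested members of 6 related gene lists. Filled points passed an adjusted p of 0.05 over all genes tested, and bars mark each list's median, from 0.05 for regulators to 0.79 for pore subunits.

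For each member the genes with the most similar course over the 10 libraries were sought by the root mean square difference of centred log2 CPM. Cacna1b was matched most closely, by Mcart1 (0.04) and Taf2 (0.07), where the median over 11659 genes was 0.47. Cacna1c was nearest to Lrpap1 (0.10) and Pds5b (0.11), and Cacna1d to the phosphodiesterase gene Pde7b (0.11) and the protein kinase A inhibitor gene Pkia (0.14). Cacna1e was nearest to Extl3 and Lphn1 (0.17 each), Cacna1i to Gatsl2 (0.16) and Pgap1 (0.17), Cacna1a to Slc43a2 and Map3k5 (0.19 each), and Cacna1g to Acvr1c (0.19) and Ppargc1b (0.21). Cacna1h was nearest to Plekhg5 (0.13), with a log2 fold change of -0.93, and to Gng7 (0.22), with -0.99. Among the 8 members themselves the nearest pair was Cacna1b and Cacna1c (0.30), and Cacna1h stood farthest from the others, with differences from 0.86 to Cacna1c up to 1.6 to Cacna1g.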

How the data were processed

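The authors' deposited expected counts (estimated counts per gene) come, per the submitters' processing notes, from bcl2fastq 2.17, Bowtie2 2.1.0 and RSEM 1.2.15 on rn6. The deposited signal table is TMM-scaled CPM made with edgeR, per the same notes. Sources used here do not give the annotation or strand setting. Between 10.6% and 11.3% of counts per library were not whole. Those of Cacna1g and Cacna1h were not whole in any library, so some of their reads were shared with other genes. Counts of Cacna1i were not whole in 5 libraries and those of Cacna1e in 1. The part of shared reads in the T-type levels and ratios was not tested. Counts of Cacna1a, Cacna1b, Cacna1c and Cacna1d were whole throughout. Libraries held 7553804 to 10121571 counts in the ibudilast and 6960066 to 8204390 in the untreated group.

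Printed levels are the deposited CPM. edgeR 4.0.16 (R 4.3.3) was run on rounded counts (filterByExpr, TMM, quasi-likelihood test, Benjamini-Hochberg over 11682 genes), tested first on simulated data. Ratios used log2(CPM + 0.5). Groups follow the treatment labels, and each library is 1 animal. Alternatives covered scaling, filters, DESeq2 1.42.0, limma 3.58.1, the replicate block, marker scores, gene span and left-out libraries, of which the range of the animal tag and leaving out ibudilast 2 and 4 were added after seeing the data. Span was found for 98.2% of tested genes. Genes named were all 8 members, the 3 called genes of smallest p (mean of at least 1 CPM) of each list, and the 2 most similar genes for each member, with 1 list gene not reported here; Cacng8, C1ql2, Gabra6 and the other list members were named after their values were seen. Members and lists were chosen with earlier results of these data known.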

Additional observations from a re-analysis of the deposited data

Results flagged for a closer look

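Ibudilast 3 was flagged 5 times because it lay far from the other 4 ibudilast libraries. Cacna1a stood at 665 CPM there, against 274 to 349 CPM in the other ibudilast libraries. The P/Q-type share was 44.8% there and 24.8 to 28.6% in the others. The log2 ratio of Cacna1a over Cacna1b was 2.09, against 0.48 to 0.83. The log2 ratio of Cacna1a over Cacna1e was 2.62, against 0.96 to 1.44. The log2 ratio of Cacna1g over Cacna1i was 1.75, against -0.39 to -0.05. In all, 46 groups of 5 values were checked, and chance flags about 1 group in 20. The flags are not independent, since all but that of Cacna1g over Cacna1i contain the Cacna1a level. Cerebellar markers summed to 4144 CPM in ibudilast 3, and their part in these values was not tested beyond leaving the library out. No untreated library was flagged for these measures.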

How the results depend on the processing

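Over the 8 members and 26 alternatives, 186 of 208 fold changes kept their direction and side of the threshold, and 207 kept their direction. The exception in direction was Cacna1c with the span trend removed (-0.33). In 16 alternatives edgeR called 0 members lower, among them library totals, no filter, the replicate block, the animal tag range and leaving out ibudilast 2 and 4. Cacna1h had an unadjusted p from 0.0156 to 0.0855 in these, under 0.05 in 13, and adjusted p from 0.0508 to 0.188. DESeq2 (adjusted p = 0.0199) and limma-voom (0.0363) called it. With 1 library left out 5 members were higher in every fit and 0 to 1 lower. Of the 11705 to 11784 genes tested in those fits, 1843 to 2573 were higher and 1615 to 2284 lower. The ratio differences ran from -0.75 to -0.31 for Cacna1a over Cacna1e and from -0.92 to -0.64 for Cacna1b over Cacna1e. For Cacna1g over Cacna1i they ran from -0.30 to 0.23.

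Without ibudilast 3, ibudilast 5 and untreated 1, 1357 genes and 2 list genes were lower, 0 members were lower, and the ratio differences were -0.63 (Cacna1b over Cacna1e), 1.86 (Cacna1g over Cacna1h), -2.14 (Cacna1h over Cacna1i) and -0.28 (Cacna1g over Cacna1i, of the other sign), none past the threshold, which 4 against 3 libraries hardly allow (smallest exact permutation p = 0.0286). With the neocortical score 1308 genes were higher and 687 lower, 3 members higher and 0 lower, and 20 list genes higher and 2 lower. With the hippocampal score 1443 genes were higher and 1220 lower, and 0 members and 1 list gene lower. With the span trend removed 2 members were lower, and 24 list genes higher and 10 lower. Without ibudilast 2 and ibudilast 4, 1451 genes were higher and 1103 lower, and 24 list genes higher and 3 lower. The cause of each was not tested.

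Same-numbered libraries deviated together in none of 5 pairs (correlations from -0.13 to 0.02), so the numbers were not taken as pairs. Under the replicate block Cacna1d was called higher (0.50, adjusted p = 0.0283). A sign-flip test of the paired ratio differences (-0.76, 2.43 and -2.34) cannot go below 0.0625.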

Other observations

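The other L-type pore genes of the table are Cacna1s, the skeletal muscle form, and Cacna1f, the retinal form. Cacna1s had 7, 26, 5, 27 and 17 counts in ibudilast 1 to 5, against 2, 5, 1, 5 and 1 in untreated 1 to 5. Cacna1f had 4, 8, 7, 11 and 9 counts in ibudilast libraries, against 0, 3, 2, 3 and 3 in untreated libraries. Both were too low for the filter, and without a filter edgeR gave log2 fold changes of 2.29 (adjusted p = 0.0153) and 1.55 (adjusted p = 0.0413). Cacna1s was highest in ibudilast 2 and ibudilast 4, which also had the highest sums of neocortical markers (1134 and 1185 CPM). The part of neocortical tissue in these counts was not tested.

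The CA1 gene Wfs1 stood at 358, 227, 220, 195 and 407 CPM in ibudilast 1 to 5, against 82.6, 78.2, 67.9, 597 and 67.1 CPM in untreated 1 to 5. Untreated 4, alone of its group at such a level, also had the highest Cacna1a, Cacna1d, Cacna1e and Cacna1h of the untreated libraries, and the lowest Cacna1g. It had the highest untreated level of the granule cell gene Prox1 as well (56.3 CPM). Ibudilast libraries, all at 195 CPM of Wfs1 or more, had 25.1 to 138 CPM of Cacna1h, against 113 to 223 CPM in untreated libraries. A link of Wfs1 to the pore genes was not tested.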
